A study of Bos taurus with 46 samples.

Results

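Plasma miRNAs were compared between Day 16 and Day 0 of the oestrous cycle in 8 non-pregnant heifers. Each heifer gave a library on both days, so the comparison rests on 16 of the 46 libraries of the series, namely 8 from Day 0 (NP0) and 8 from Day 16 (NP16), chosen by the day and animal in their labels. All were yearling Holstein-Friesian heifers from a single farm. Each of these heifers had been brought into oestrus with an intravaginal progesterone device, the GnRH analogue buserelin and the prostaglandin analogue cloprostenol, and was sham-inseminated on Day 0. No heifer therefore had an unsynchronised Day 0, and the day of the cycle cannot be told apart from the time since these hormones or from the date of sampling. The same heifers gave a library on Day 8 (NP8), and other, inseminated heifers gave Day 16 libraries of pregnancy (P16). Both are used below as reference levels only.

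A miRNA is a short RNA that guides an Argonaute protein to messenger RNAs and lowers their translation or stability. In blood, miRNAs outlast the cells that made them because they travel bound to protein or inside vesicles, and most of those in plasma stem from red blood cells, platelets, white blood cells and endothelium, with smaller amounts from solid tissues. Day 0 is oestrus, when oestradiol peaks and progesterone is low. By Day 16 a mature corpus luteum secretes progesterone, shortly before it regresses in a cycle without pregnancy. A plasma level does not say whether more cells released a miRNA or each cell released more of it. These 2 cannot be told apart here.

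Levels are given as reads normalised to the mapped reads of the library (RPMM), as the lowest, the median and the highest of the 8 heifers. Fold changes are log2 ratios of Day 16 to Day 0 within heifers on counts scaled by TMM, which sets the bulk of the miRNAs level between libraries. The 16 libraries held 1.30e+06 to 4.67e+06 miRNA reads. miRNA made up 52.5 to 76.6% of the mapped reads on Day 0 and 65.3 to 79.5% on Day 16. Neither the reads (two-sided exact sign-flip permutation test over 8 heifers, p = 0.742) nor this share (p = 0.539, same exact test) differed between days beyond the spread of the heifers. Names of erythrocyte, platelet and leukocyte miRNAs were abundant in every library, while miR-1, miR-206 and miR-208a of muscle stayed under 4 RPMM.

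None of the 214 miRNAs tested passed the FDR limit of 0.1 (edgeR quasi-likelihood test with the heifer as block, 0% called). The smallest adjusted p was 0.343 in edgeR, shared by 12 miRNAs. An unadjusted p under 0.05 was found for 28 miRNAs (13.1% of those tested, where evenly spread p values would give 10.7 miRNAs). Of these, 18 were higher on Day 16 (8.41%) and 10 were lower (4.67%). Across all 214 the median log2 fold change was 0.02, the median size was 0.18, and 2 miRNAs, miR-133a and miR-208b, exceeded 1. Scaled by library totals instead of TMM, all fold changes shifted down, to a median of -0.21, and the miRNAs under 0.05 became 2 higher (0.935%) and 33 lower (15.4%). A direction is therefore given below with its count on library totals where that differs. DESeq2 called 2 miRNAs at an FDR under 0.1, miR-208b and miR-136, both lower on Day 16.

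**Figure D1:**
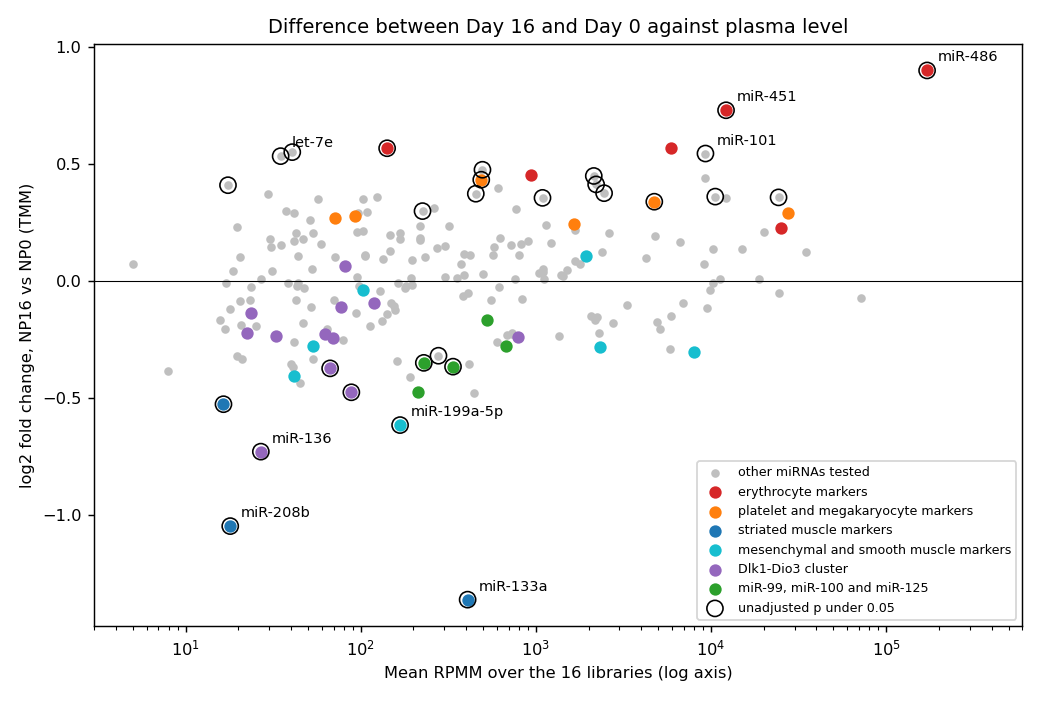
Log2 fold change of each of the 214 miRNAs (Day 16 against Day 0, TMM scaling, y axis) against its mean level in RPMM over the 16 libraries (x axis, log). Coloured points are members of 6 lists and black rings mark the 28 miRNAs with an unadjusted p under 0.05, none of which passed the FDR limit. The 6 erythrocyte miRNAs all lie above 0 and the 3 muscle miRNAs all below 0. Among these 3, miR-208b passed the filter on low levels through NP0 alone, so its place is no support.

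On the TMM scale, the median log2 ratio of the red blood cell miRNAs was positive in 7 of 8 heifers, though none passed the FDR limit. All 6 erythrocyte markers tested had a positive fold change, against 54.7% of all miRNAs tested, and all 6 did on library totals, against 20.6%. Their median was 0.57 (0.33 on library totals), and 3 of the 6 had an unadjusted p under 0.05. The most abundant, miR-486, lies in ANK1, the gene of an erythrocyte membrane skeleton protein (chr27:38990915-38990936, UMD 3.1). It was at 31911, 133231 and 323270 RPMM (lowest, median and highest) on Day 0 and at 85841, 203406 and 359043 RPMM on Day 16. This gave a log2 fold change of 0.90 ± 0.33 (SE, n = 8 heifers, adjusted p = 0.343 in edgeR). Levels were higher on Day 16 in 6 of 8 heifers, and the ranges of the 2 days overlapped over most of their length.

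miR-451, an erythroid miRNA whose hairpin is cut by Argonaute 2 in place of Dicer, was at 2991, 11070 and 21012 RPMM on Day 0 and at 7954, 13404 and 20336 RPMM on Day 16. It was higher in 7 of 8 heifers (10.7% of the miRNAs tested were higher in at least 7), with a log2 fold change of 0.73 ± 0.26 (SE, adjusted p = 0.343 in edgeR). miR-144, which is cut from the same erythroid transcript on chromosome 19, had a median of 128 RPMM on Day 0 and 149 RPMM on Day 16 (log2 fold change 0.57 ± 0.24, SE). miR-16b (0.57), miR-16a (0.45) and miR-92a (0.23) had smaller or more variable log2 fold changes, and these 3 are also made outside erythrocytes. In RPMM, miR-92a was higher on Day 16 in 3 of 8 heifers, and miR-16a and miR-16b were higher in 6 of 8 each. The median went from 25193 to 24616 RPMM for miR-92a, from 1027 to 953 for miR-16a and from 5697 to 6267 for miR-16b. On both days miR-486 was on average the most abundant miRNA, with a mean of 19.8% of all miRNA reads on Day 0 and 28.0% on Day 16 (two-sided exact sign-flip test over 8 heifers, p = 0.141).

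The lowest library of Day 16 held more erythrocyte miRNA than the lowest of Day 0, whereas the highest libraries were alike. The 6 markers together held 10.7, 25.8 and 51.2% of the miRNA reads on Day 0 and 18.7, 35.3 and 51.9% on Day 16 (two-sided exact sign-flip test over 8 heifers, p = 0.164, adjusted p = 0.427 over 13 library measures). Heifers 21 and 18 had the largest gains, from 13.8 to 44.99% and from 26.9 to 51.9%. Heifer 20 went the other way, from 51.2 to 33.9%, and heifer 34 from 37.8 to 31.9%. The mean gain was 8.67 ± 15.4 percentage points (SD). Leaving out single heifers gave gains of 5.45 to 12.4 percentage points (exact sign-flip tests over 7 heifers, p = 0.0312 to 0.328), the largest without heifer 20. The log2 ratio of miR-451 to miR-23a, used in plasma work to grade red cell lysis, was 0.34, 1.97 and 3.52 on Day 0 and 1.88, 2.78 and 4.07 on Day 16. It was higher on Day 16 in 7 of 8 heifers, by 0.94 ± 0.73 (SD; two-sided exact sign-flip test over 8 heifers, p = 0.0156, adjusted p = 0.102). The paper graded lysis by this ratio in PCR and by optical density. It concluded that every plasma sample used for profiling lay in the normal range of plasma without haemolysis. The part of red cell lysis at sampling in the difference between days was not tested here.

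**Figure D2:**
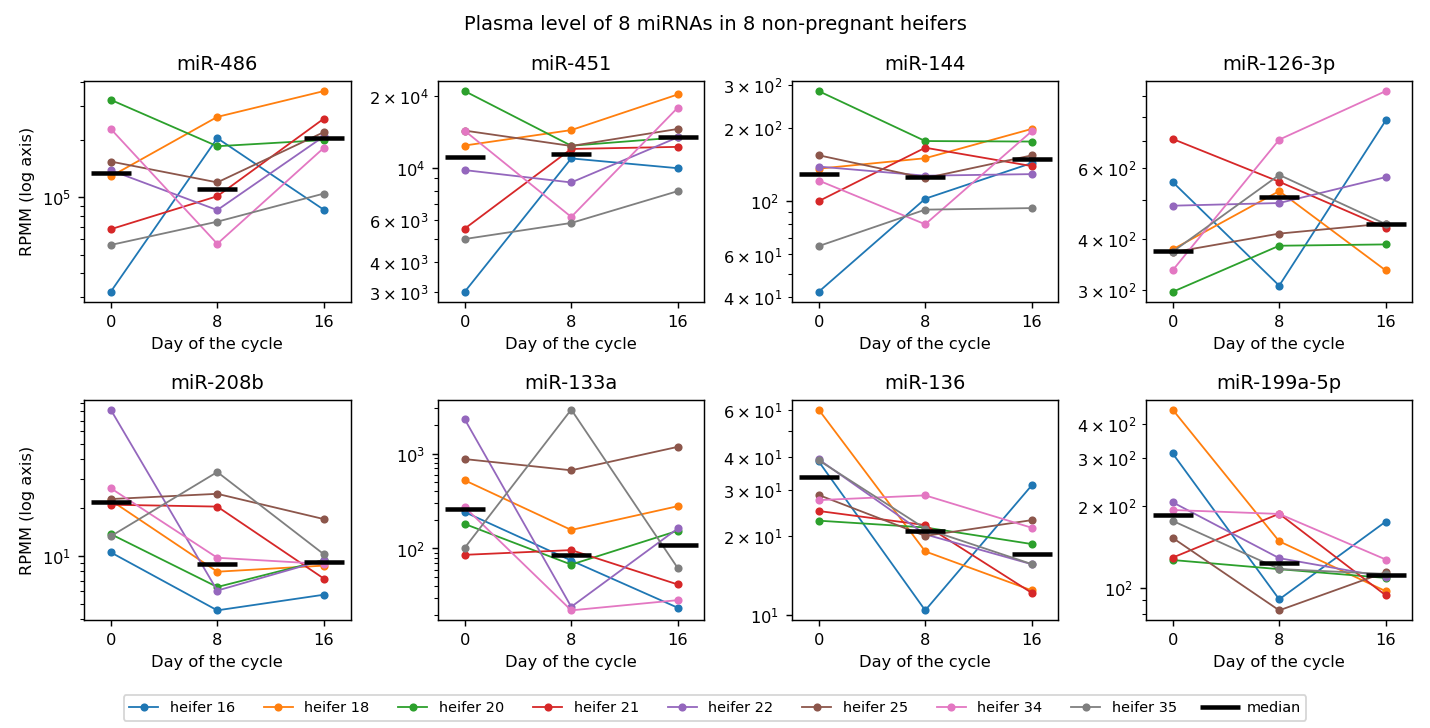
Levels in RPMM (log axis) on Days 0, 8 and 16 in each of the 8 non-pregnant heifers (coloured lines), with the median of each day as a black bar. In the top row, miR-486 had medians of 133231, 110235 and 203406 RPMM and heifers 20 and 34 were lower on Day 16 than on Day 0. In the bottom row, miR-208b and miR-136 were lower on Day 16 than on Day 0 in 8 of 8 heifers.

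Platelet and endothelial miRNAs had small positive fold changes. All 6 platelet and megakaryocyte markers had a positive fold change, against 54.7% of all miRNAs tested, with a median of 0.28. On library totals all 6 did too, against 20.6%, with a median of 0.06. miR-126-3p, which lies in the endothelial gene EGFL7 and maintains vascular integrity (chr11:108009438-108009458), was at 297, 375 and 707 RPMM on Day 0 and at 335, 437 and 927 RPMM on Day 16. Its TMM-scaled level was higher in 8 of 8 heifers (0.935% of the miRNAs tested were), and its RPMM in 6 of 8. Its log2 fold change of 0.43 ± 0.16 (SE, adjusted p = 0.343 in edgeR) became 0.24 to 0.49 when single heifers were left out. The other arm, miR-126-5p, had 0.34 ± 0.15 (SE) and 6 of 8 heifers higher. miR-191, a platelet-rich miRNA, had 0.29 ± 0.17 (SE). The 6 markers had a mean share of reads of 4.98% on Day 0 and 5.01% on Day 16 (two-sided exact sign-flip test over 8 heifers, p = 0.984).

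Leukocyte markers were mixed. Of 12 tested, 8 had a positive fold change (2 on library totals), and the median was 0.03. miR-146b and miR-146a, which dampen Toll-like receptor signalling, had the largest positive values, at 0.55 ± 0.24 and 0.36 ± 0.17 (SE). miR-146b was at 19.4, 31.8 and 63.4 RPMM on Day 0 and at 29.8, 42.3 and 83.2 RPMM on Day 16, with 6 of 8 heifers higher on the TMM scale. The neutrophil miR-223, the lymphocyte miR-150 and both arms of miR-142, made by all blood cells, lay between 4 and 5 of 8 heifers higher. miR-27a-3p (-0.29) and miR-23a (-0.22), encoded together on chromosome 7, were at the lower end.

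miRNAs of striated muscle had lower levels on Day 16 in most heifers. Of 8 names, 3 were tested and all 3 had a negative fold change (45.3% of all miRNAs tested did) and an unadjusted p under 0.05 (4.67% were lower at this limit). miR-208b lies in MYH7, the gene of the slow and cardiac beta-myosin heavy chain (chr10:21810359-21810380, minus strand). It was at 10.5, 21.5 and 81.9 RPMM on Day 0 and at 5.71, 9.15 and 16.95 RPMM on Day 16. Every heifer was lower on Day 16 (8 of 8, as in 0.935% of the miRNAs tested). A log2 fold change of -1.05 ± 0.28 (SE, adjusted p = 0.343 in edgeR, 0.0567 in DESeq2) resulted, a level 2.07-fold lower than on Day 0. miR-208b passed the filter on low levels through NP0 alone, so that it was tested because Day 0 was high and its place in the count of 3 is no support.

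miR-133a, a miRNA of skeletal and heart muscle, was at 85.7, 258 and 2309 RPMM on Day 0 and at 23.7, 108 and 1179 RPMM on Day 16. It was lower in 7 of 8 heifers (at least 7 were lower for 7.94% of the miRNAs tested), with a log2 fold change of -1.36 ± 0.49 (SE, adjusted p = 0.343 in edgeR). Its range within 1 day covered more than the difference between days. Heifer 22 gave the highest Day 0 value and heifer 25 the highest Day 16 value, and without heifer 22 the log2 fold change was -1.09. miR-499, the intronic miRNA of MYH7B, had a median of 18.5 RPMM on Day 0 and 11.6 RPMM on Day 16, and a log2 fold change of -0.53 ± 0.23 (SE). It reached the filter only in NP8 and P24. The remaining 5 names, miR-1, miR-133b, miR-133c, miR-206 and miR-208a, did not reach it. The 8 names together held 0.0174 to 0.329% of the reads on Day 0 and 0.00625 to 0.170% on Day 16, lower in 7 of 8 heifers (two-sided exact sign-flip test, p = 0.0859, adjusted p = 0.372 over 13 measures).

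Mesenchymal and smooth muscle miRNAs also had mostly negative fold changes. Of 7 tested, 6 had a negative fold change, against 45.3% of all miRNAs tested, with a median of -0.28. On library totals 7 did, against 79.4%. miR-199a-5p, transcribed with miR-214 within DNM3 (chr16:36247840-36247861, minus strand), was at 127, 185 and 452 RPMM on Day 0 and at 93.8, 111 and 175 RPMM on Day 16. Its RPMM was lower in 8 of 8 heifers and its TMM-scaled level in 7. In edgeR it had a log2 fold change of -0.62 ± 0.20 (SE, adjusted p = 0.343). The other arm, miR-199a-3p, was the 1 member with a positive fold change, at 0.11 ± 0.23 (SE). This more abundant arm had medians of 2288 RPMM on Day 0 and 1858 RPMM on Day 16. It was higher in 4 of 8 heifers on the TMM scale and in 2 of 8 in RPMM. miR-199b had -0.04 and miR-199c had -0.28. miR-214 had -0.28 ± 0.15 (SE). The smooth muscle pair miR-143 (-0.30) and miR-145 (-0.41) was lower in 6 of 8 heifers each. Heifer 16 stood apart for miR-143, with 32517 RPMM on Day 0, where the other heifers lay at 4602 to 8909 RPMM. It had 13555 RPMM on Day 16 but 4451 RPMM on Day 8.

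The list's share of reads was 1.32, 1.60 and 6.94% on Day 0 and 1.08, 1.22 and 2.75% on Day 16. It was lower in 8 of 8 heifers (two-sided exact sign-flip test, p = 0.0078, the smallest that 8 pairs can give, adjusted p = 0.102 over 13 measures). The erythrocyte share was higher on Day 16 in 6 of these heifers and lower in heifers 20 and 34, in which the mesenchymal share went from 1.32 to 1.29% and from 1.499 to 1.08%.

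The imprinted Dlk1-Dio3 cluster on chromosome 21 encodes many miRNAs expressed from the maternal chromosome, mostly in brain, muscle and placenta. Of its 54 names, 12 were abundant enough to test and 11 of these had a negative fold change, against 45.3% of all miRNAs tested. On library totals all 12 did, against 79.4%. One of the 12, miR-409b, passed the filter on low levels through NP0 alone, so its sign is no support. The median was -0.23, and 3 had an unadjusted p under 0.05. miR-136, which lies within RTL1, a gene needed in the placenta (chr21:65870126-65870148), was at 22.9, 33.5 and 60.4 RPMM on Day 0 and at 12.2, 17.1 and 31.2 RPMM on Day 16. It was lower in 8 of 8 heifers, with a log2 fold change of -0.73 ± 0.21 (SE, adjusted p = 0.343 in edgeR, 0.0681 in DESeq2). It passed the filter in NP0, P16 and P24 but in neither NP8 nor NP16.

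miR-381, further along the cluster, was at 67.1, 103 and 163 RPMM on Day 0 and at 48.5, 65.8 and 103 RPMM on Day 16, with a log2 fold change of -0.48 ± 0.16 (SE). It was lower in 7 of 8 heifers. miR-154c had a median of 76.6 RPMM on Day 0 and 54.6 RPMM on Day 16 (-0.37 ± 0.16, SE), also lower in 7 of 8. Heifer 21 was the exception for both. The median ratio of the 12 members within heifers was negative in 7 heifers and 0.50 in heifer 21.

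A further family, that of miR-99 with miR-100 and miR-125, is encoded beside let-7 genes at 3 places in the genome. All 5 members tested had a negative fold change on TMM scaling, against 45.3% of all miRNAs tested, with a median of -0.35. On library totals all 5 did too, but so did 79.4% of all miRNAs tested. miR-100 was at 206, 369 and 624.9 RPMM on Day 0 and at 155, 285 and 384 RPMM on Day 16 (log2 fold change -0.37 ± 0.16, SE). miR-99a-5p went from a median of 254 to 194 RPMM (-0.35 ± 0.16, SE), and miR-125b, the vertebrate homologue of worm lin-4, from 214 to 142 RPMM (-0.47 ± 0.22, SE). Each of the 3 was lower in 7 of 8 heifers on the TMM scale. Heifer 21 again ran the other way, with a median ratio of 0.62 against -0.19 to -0.67 in the other heifers. Without heifer 21, edgeR called miR-100, miR-99a-5p, miR-125b, miR-199a-5p and miR-381 at an adjusted p of 0.0855, all 5 lower. Without heifer 20 it called miR-451, miR-486, miR-144 and miR-106b higher and miR-208b and miR-381 lower, at an adjusted p of 0.0906. Leaving out any other single heifer gave no calls. Heifers 20 and 21 ran against most other heifers for most of the miRNAs called without them. These calls therefore follow from which heifer was left out and are no support.

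**Figure D3:**
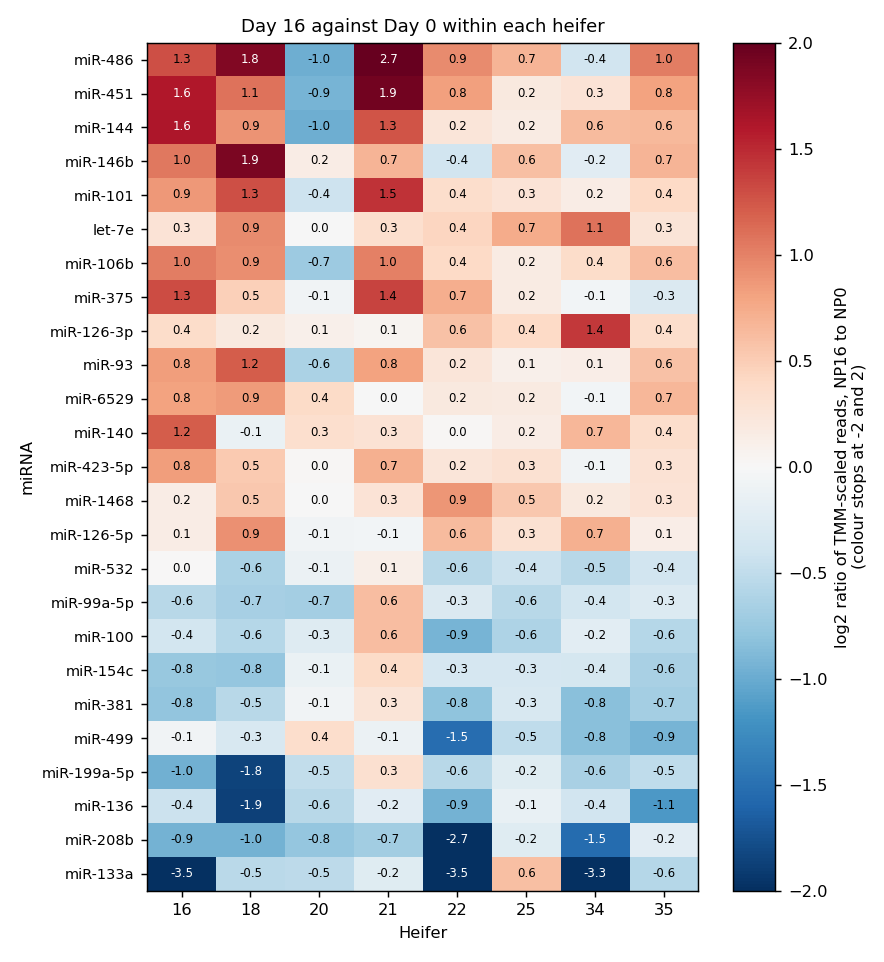
Log2 ratio of Day 16 to Day 0 within each heifer (columns) for 25 miRNAs with an unadjusted p under 0.05 (rows, ordered by the fitted fold change). Red is higher on Day 16 and blue is lower, with colours stopping at -2 and 2. Heifer 20 is blue where the other heifers are red for miR-451 and miR-144, heifers 20 and 34 are blue for miR-486, and heifer 21 is red where others are blue for miR-99a-5p and miR-100.

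miRNAs of the miR-17 group promote cell proliferation and are encoded in the miR-17-92 cluster and in the MCM7 gene, whose product licenses DNA replication. All 8 members tested had a positive fold change on TMM scaling, against 54.7% of all miRNAs tested, with a median of 0.26. On library totals only 5 did, against 20.6%, with a median of 0.04. miR-106b of the MCM7 cluster was at 196, 487 and 628 RPMM on Day 0 and at 416, 519 and 682 RPMM on Day 16. It was higher in 7 of 8 heifers on the TMM scale (log2 fold change 0.48 ± 0.19, SE), the exception being heifer 20. Its neighbours miR-93 and miR-25 had 0.41 ± 0.19 and 0.36 ± 0.21 (SE).

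miRNAs linked to the ovary and corpus luteum showed no common direction. Of 14 names, 6 were tested, 2 had a positive fold change (0 on library totals), and none had an unadjusted p under 0.05. The median was -0.02. miR-21-5p, which supports survival of luteal cells and is made in most tissues, was higher in 3 of 8 heifers, and miR-378, miR-224 and miR-132 were higher in 6, 2 and 3. miR-202 and miR-212 stayed under 2 RPMM in every library.

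Of 4 liver and gut miRNAs, 2 had a positive fold change (1 on library totals), and miR-122, the dominant miRNA of hepatocytes, was higher in 5 of 8 heifers. The gut miRNA miR-215 differed between heifers far more than between days, with 657, 7743 and 16854 RPMM on Day 0 and 1054, 11086 and 21342 RPMM on Day 16. Of 4 epithelial markers, 3 had a positive fold change (2 on library totals). miR-375, a miRNA of pancreatic islets and other endocrine cells, was at 1186, 1915 and 2776 RPMM on Day 0 and at 1299, 2230 and 4104 RPMM on Day 16. Its log2 fold change was 0.45 ± 0.20 (SE), with 5 of 8 heifers higher on the TMM scale.

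Other families gave the following medians. The let-7 family had 0.04 with 6 of 10 positive (2 on library totals), the miR-15 and miR-16 family 0.21 with 5 of 6 (2), and the miR-25 and miR-92 family 0.18 with 4 of 5 (2). miR-320, miR-484 and miR-877 had 0.21 with 3 of 3 (1), miR-130 and miR-301 had 0.14 with 4 of 4 (0), and miR-2284 with miR-2285, a family of ruminants, had 0.08 with 9 of 10 (0). These positive counts therefore depended on the scaling. Medians at or below 0 were found for the families of miR-23, miR-24 and miR-27 (-0.22, 4 of 5 negative), miR-193 and miR-365 (-0.22, 4 of 4), miR-26 (-0.15, 2 of 3), miR-148 and miR-152 (-0.12, 2 of 3), miR-181 (-0.09, 4 of 4), miR-30 (-0.08, 4 of 6) and miR-29 (-0.01, 2 of 3). miR-193a and miR-30f in these counts passed the filter through NP0 alone, so their negative signs are no support. All members of these 7 families were negative on library totals, as were 79.4% of all miRNAs tested. Among lists with 1 or 2 tested members, both of miR-103 and miR-107, both of miR-221 and miR-222, both of miR-532 and miR-660, and miR-182 were negative, whereas miR-10a was positive and miR-10b negative (both negative on library totals). miR-532, encoded in CLCN5 on the X chromosome, was lower in 6 of 8 heifers (-0.32 ± 0.13, SE), from a median of 345 to 239 RPMM.

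**Figure D4:**
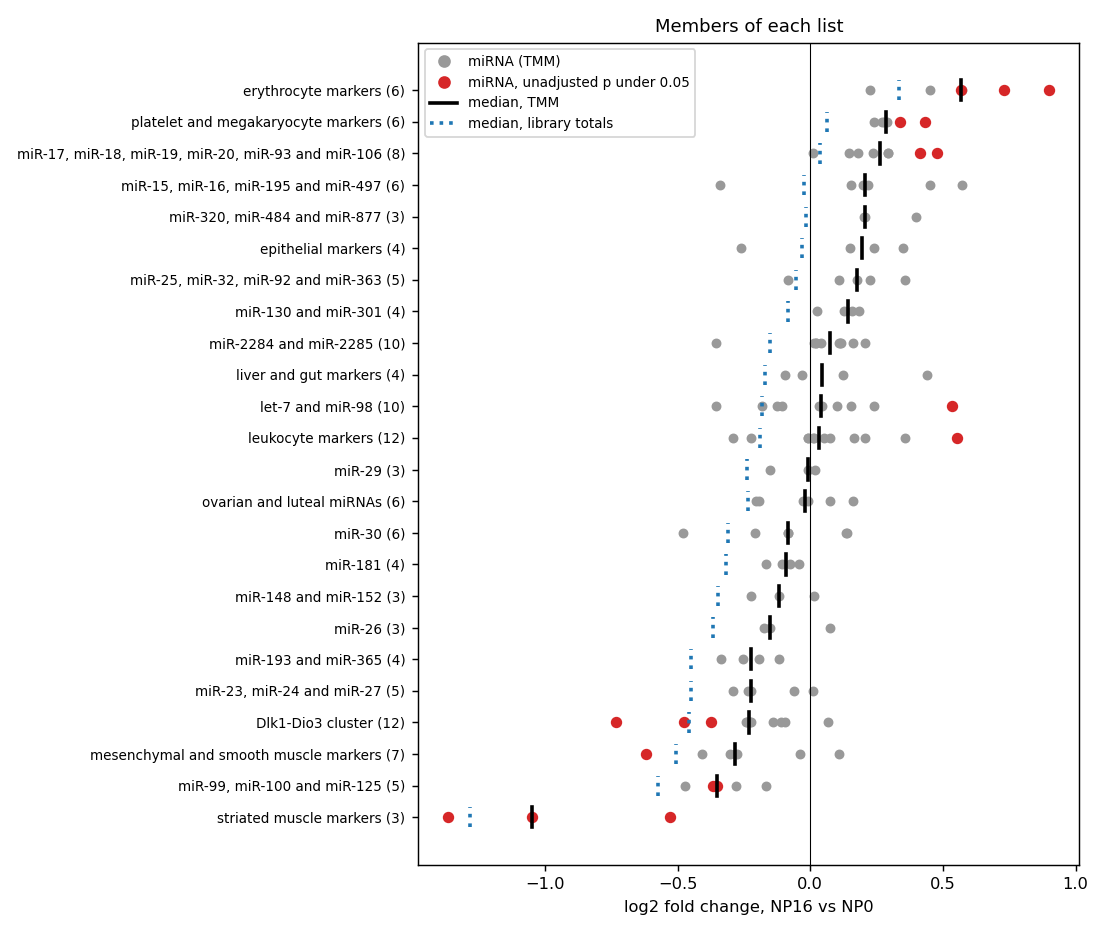
Log2 fold change of the members of each list with at least 3 miRNAs tested (number in brackets), ordered by the median. Points are miRNAs on TMM scaling, red where the unadjusted p was under 0.05. The solid bar is the median on TMM scaling and the dotted bar on library totals, which lies lower throughout. Erythrocyte markers are at the top (0.57) and striated muscle markers at the bottom (-1.05). The muscle median is the value of miR-208b, which passed the filter on low levels through NP0 alone, so this place is no support.

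Among the 20 miRNAs with the smallest p, 5 belonged to no list. miR-101, which targets the Polycomb methyltransferase EZH2, was at 3771, 8371 and 13373 RPMM on Day 0 and at 7586, 10591 and 14309 RPMM on Day 16. It was higher in 7 of 8 heifers on the TMM scale, with a log2 fold change of 0.55 ± 0.20 (SE). miR-140, a cartilage miRNA within WWP2, had 0.36 ± 0.15, miR-1468 on the X chromosome 0.36 ± 0.13, miR-423-5p 0.36 ± 0.13 and miR-6529 0.38 ± 0.14 (SE). The medians on Day 0 and Day 16 were 25237 and 25546 RPMM for miR-423-5p and 10265 and 11711 RPMM for miR-140, and 5 and 4 of 8 heifers were higher in RPMM against 7 on the TMM scale. miR-22-3p, the next most abundant miRNA after miR-486, had a log2 fold change of -0.07 ± 0.11 (SE) and medians of 78522 and 65469 RPMM.

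Day 8 was sampled between the compared days. Among the miRNAs lower on Day 16, the Day 8 medians were 8.84 RPMM for miR-208b, 85.4 for miR-133a, 20.8 for miR-136, 123 for miR-199a-5p and 65.8 for miR-381, each nearer to the Day 16 than to the Day 0 median. For miR-125b (211 RPMM) and miR-30c (411 RPMM) the Day 8 median was nearer to that of Day 0. The log2 fold change of miR-208b was -0.90 from Day 0 to Day 8 and -0.12 from Day 8 to Day 16. For miR-136 these were -0.80 and 0.05, for miR-199a-5p -0.68 and 0.04, for miR-133a -1.38 and 0.15, and for miR-125b -0.17 and -0.31. These miRNAs were named for their difference between Day 0 and Day 16, and the step to Day 8 uses the same Day 0 libraries. A large value in that step is therefore not independent of the choice, and nothing is read from it. The list medians of the steps were -0.47 and 0.21 for the Dlk1-Dio3 cluster and -0.44 and 0.16 for the mesenchymal markers.

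miR-486 had a log2 fold change of 0.03 from Day 0 to Day 8 and 0.85 from Day 8 to Day 16, and miR-451 had 0.08 and 0.60. The median of the erythrocyte list was 0.08 and 0.40 in these steps. None of the 214 miRNAs passed the FDR limit in either step in edgeR, where 23 (10.7%) and 15 (7.01%) had an unadjusted p under 0.05. The steps share the Day 8 libraries, and the difference between the steps was not tested. Muscle miRNAs were not low in every Day 8 library, since the muscle share of heifer 35 on that day was 0.412%, above the Day 0 maximum.

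In the pregnant heifers on Day 16 (10 libraries, without the one that the study left out), the median was 56.3 RPMM for miR-133a, 16.3 for miR-136 and 60.3 for miR-381, nearer to NP16 than to NP0, and 141 for miR-199a-5p, between them. The P16 medians of miR-486 (101845 RPMM) and miR-451 (9968 RPMM) were under those of NP0. P16 came from different animals, and no test was made here.

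let-7e, a member of the let-7 family encoded with miR-99b and miR-125a on chromosome 18, had the smallest p among the let-7 miRNAs. It was at 2.81, 26.5 and 71.2 RPMM on Day 0 and at 3.21, 39.96 and 81.1 RPMM on Day 16, higher in 7 of 8 heifers (log2 fold change 0.53 ± 0.17, SE, adjusted p = 0.343 in edgeR). The lowest value on each day was from heifer 22, which gave 2.81, 1.40 and 3.21 RPMM on Days 0, 8 and 16. Its other libraries thus repeated the low level, which no other non-pregnant heifer had. let-7 miRNAs differ by few bases and a mismatch was allowed in mapping, so reads may be shared between their names. For miR-2415-3p, chosen after its values were seen, heifer identity accounted for nearly all of the spread. Heifer 16 gave 1.21, 2.66 and 1.32 RPMM on Days 0, 8 and 16, and heifer 34 gave 175, 191 and 172 RPMM. After removing the mean of each day, the share of variance between heifers was 0.99 for miR-2415-3p and 0.94 for let-7e, against a median of 0.206 over the 214 miRNAs.

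**Figure D5:**
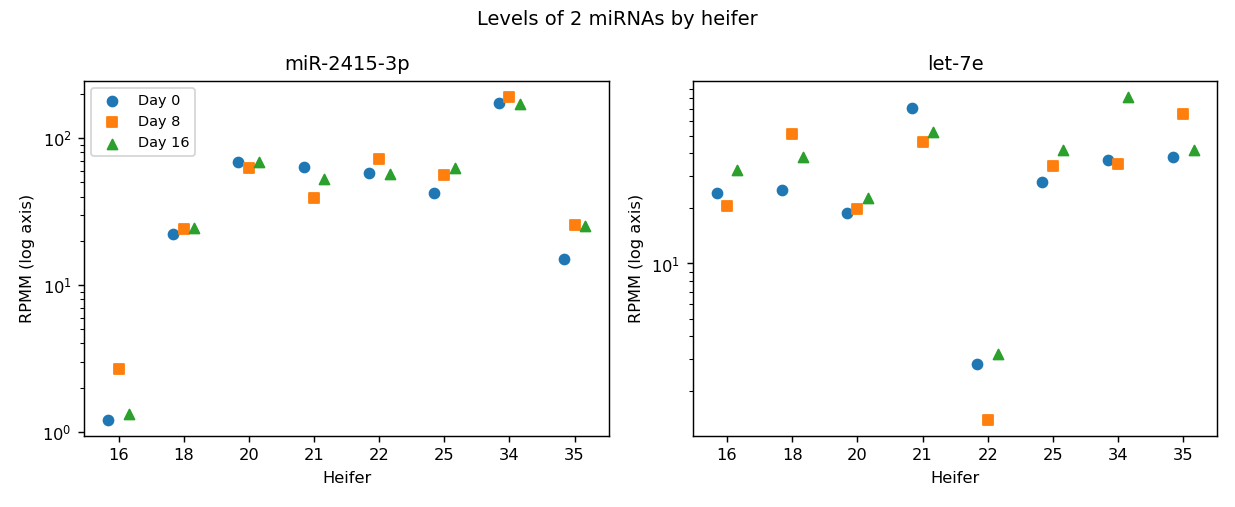
Level in RPMM (log axis) of miR-2415-3p and let-7e in each of the 8 non-pregnant heifers (x axis) on Days 0, 8 and 16 (symbols). Values of different heifers spread more widely than the 3 days of a heifer. Heifer 16 is lowest for miR-2415-3p at 1.21 to 2.66 RPMM and heifer 22 for let-7e at 1.40 to 3.21 RPMM.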

How the data were processed

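The authors extracted RNA from EDTA plasma spun a further time to remove debris and platelets, sequenced TruSeq small-RNA libraries as single-end reads, and mapped trimmed reads with sRNAtoolbox (genome UMD 3.1 per the labels) to bovine and then human mature miRNAs of miRBase, allowing a mismatch. The deposited counts are whole reads per miRNA name. The deposited RPM values (RPMM in the text) are those counts normalised by the authors to the mapped reads of each library, so that non-miRNA reads stay in the divisor. The sources name no sequencing batch.

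Of 870 names, 214 were tested. To be tested, a name had to reach 25 RPM often enough in at least 1 of the 5 groups, since names below 25 RPM in over 75% of libraries in all groups were dropped. Counts were fitted in edgeR 4.0.16 (R 4.3.3, TMM, glmQLFit and glmQLFTest) with heifer and day as terms and Benjamini-Hochberg adjustment. Library measures were tested by sign flips of the 8 within-heifer differences (256 patterns). The heifer number pairs the libraries by label. Deviations from the day means correlated between the 2 libraries of a heifer at 0.223 to 0.547 (8 of 8 over 0.1). Among the Day 0 libraries, that of the same heifer correlated best with the Day 16 library for 6 of 8 heifers, but not for heifers 18 and 20. Without the replicate block, 12 in place of 28 miRNAs had an unadjusted p under 0.05. That the libraries of a day came from separate animals makes heifers the replicates.

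Lists of markers and families (30) matched bovine names. Locations are those in the deposited table on UMD 3.1, and host genes come from RefSeq (ARS-UCD2.0, names only, 64 of 64 looked up). A rule set which miRNAs to name. It took the 20 smallest p values, the 10 most abundant and all tested members of marker and ovarian lists. It also took up to 4 of each family, and those called by DESeq2 or without the block. The text does not name all of these. Left out are, among others, the abundant miR-192, miR-27b and miR-30d and the marker list members miR-155, miR-342 and miR-205. The members, lists and rule were chosen with earlier results of these data known. Alternatives were DESeq2 1.42.0, limma 3.58.1 on log2(RPM + 1) and log2(RPM + 0.1), other scalings and filters, and each heifer left out. Scripts used Python 3.11.15, numpy 2.4.6, pandas 2.3.3, scipy 1.17.1 and matplotlib 3.10.9. The fits were tested on simulated data. Mature sequences are not printed because no sequence table was used here.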

Additional observations from a re-analysis of the deposited data

Results flagged for a closer look

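In 108 groups of 8 values, 20 had a highest sample that stood apart from the others by Dixon's 95% limit, which chance gives in about 1 group in 20. Heifer 22 stood apart on Day 0 for muscle miRNAs, with a muscle share of 0.329%, 81.93 RPMM of miR-208b, 2309 RPMM of miR-133a and 48.2 RPMM of miR-499. Heifer 25 did so on Day 16, with a muscle share of 0.170%, 16.95 RPMM of miR-208b and 1179 RPMM of miR-133a.

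Heifer 16 stood apart for mesenchymal miRNAs on both days, with a list share of 6.94% on Day 0 and 2.75% on Day 16. It had 32517 RPMM of miR-143 on Day 0 and 13555 on Day 16, its miR-145 was at 129.8 RPMM on Day 0 and its miR-199a-5p at 175 RPMM on Day 16. On Day 16 it also had the highest liver and gut share (13.03%) and epithelial share (0.592%). The same heifer had the lowest erythrocyte share on both days. Its libraries of Day 0 and Day 16 also held the fewest miRNA reads of their day, at 1.30e+06 and 1.49e+06. On Day 8 its mesenchymal share was 1.18% and its erythrocyte share was 40.8%, so neither extreme was seen on that day. Whether these values share a source was not tested.

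Other single libraries were heifer 18 with 60.4 RPMM of miR-136 on Day 0 and 83.2 RPMM of miR-146b on Day 16, heifer 20 with 283.6 RPMM of miR-144 on Day 0, and heifer 21 with 1595 RPMM of miR-1468 and 56953 RPMM of miR-191 on Day 0.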

How the results depend on the processing

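The count past the FDR limit was 0 in edgeR, and also 0 without the replicate block, with Day 8 in the fit, with DESeq2 size factors, with scaling without the erythrocyte markers, with robust estimation, with filters at 100 RPM or on the mean, at a limit of 0.05 and with exact sign-flip tests. It was 2 with library totals (miR-133a and miR-208b), 2 in DESeq2 and 4 in limma with either pseudocount (miR-133a, miR-136, miR-199a-5p and miR-208b). With no filter it was 8. The 4 miRNAs of limma, miR-133b and miR-96 were lower there, and miR-486 (log2 fold change 0.88) and miR-451 (0.71) were higher. The count was 7 without heifers 20 and 21, an alternative chosen after seeing the data. The cause was not tested. The 28 miRNAs under an unadjusted p of 0.05 became 12 without the replicate block, 48 with no filter, 18 at 100 RPM and 44 without heifers 20 and 21. Those higher (18) became 5 without the block, 2 with library totals and with limma at either pseudocount, 1 with sign flips and 11 at 100 RPM. Those lower (10) became 33 with library totals, 33 and 32 in limma, 29 with sign flips, 17 in DESeq2, 22 with no filter and 23 without heifers 20 and 21. Leaving out single heifers gave 0 to 6 past the limit (6 without heifer 20, 5 without heifer 21, otherwise 0) and 15 to 39 under 0.05, of which 5 to 16 were higher and 6 to 23 lower. The fold changes of the 41 miRNAs given with values in the text kept their sign in all 933 combinations of miRNA and alternative, and 36 of these passed the limit. These combinations are not independent. The limit of 0.05 repeats the edgeR fit and cannot change a sign, and the sign-flip test has the fold changes of limma on log2(RPM + 1). Many of the 41 were named for their small p in the same data. Other list members did change sign with library totals, as the counts in the report show.

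List medians that moved by more than the spread between heifers on library totals were those of leukocytes (-0.19), miR-10 and miR-196 (-0.16) and miR-221 and miR-222 (-0.32). With single heifers left out, the Day 16 minus Day 0 differences ranged from -155066 to 365888 miRNA reads and from -0.27 to 3.52 percentage points of mapped reads. In percentage points of miRNA reads they ranged from -0.237 to 0.718 for platelet, -0.938 to 0.289 for liver and gut, -0.0630 to 0.0162 for epithelial, 5.45 to 12.4 for erythrocyte, -0.0665 to -0.0175 for muscle and -0.0448 to -0.0183 for human-named miRNAs. Where these change sign, no difference between days is shown, and a sign that is kept does not show one either. Muscle miRNAs rest on few reads, since miR-208b had 1186 reads over the 16 libraries.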

Other observations

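Neighbouring miRNAs were compared by the sign of their fold changes. Of 43 clusters of miRNAs within 10000 bases on a strand (100 miRNAs in all, both arms of a hairpin included), 27 had a single sign on TMM scaling. Most clusters hold 2 names, no test was made, and the count shows no more than itself. miR-451 and miR-144 on chromosome 19 had a median of 0.65, and miR-106b, miR-93 and miR-25 on chromosome 25 had 0.41. The 6 miRNAs of the miR-17-92 cluster on chromosome 12 had 0.20 with 6 of 6 positive, against 54.7% of all miRNAs tested. These 6 include both arms of miR-17, and their median was -0.02 on library totals. miR-214 and miR-199a-5p on chromosome 16 had -0.45, and miR-143 and miR-145 on chromosome 7 had -0.35. An exception was the trio of miR-99b, let-7e and miR-125a on chromosome 18, which lies within 700 bases and had log2 fold changes of -0.28 for miR-99b and 0.53 for let-7e.

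Levels in RPMM were more spread out between heifers on Day 0 than on Day 16. The SD of log2 levels between heifers was larger on Day 0 for 159 of the 214 miRNAs, with a median of 0.51 on Day 0 and 0.38 on Day 16, and for 139 to 165 when single heifers were left out. RPMM is divided by all mapped reads, so the miRNA share of a library moves all its miRNAs together. That share had an SD of 8.96 percentage points on Day 0 and 4.55 on Day 16. Its part in the wider spread was not tested. miRNAs are not independent of each other, and no test was made. In all 46 libraries of the series, let-7e was low in 5 (1.33 to 3.21 RPMM, from 6 to 15 reads), which came from heifer 22 and a pregnant heifer, and at 7.08 to 81.1 RPMM in the other 41. miR-2403, also chosen after its values were seen, was like miR-126-3p higher on Day 16 in 8 of 8 heifers on the TMM scale.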
